A study of Mus musculus with 36 samples.

Results

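Stimulated mouse T cells without MALT1 were compared with T cells that keep 1 Malt1 allele, both 4 h after stimulation. The comparison rests on 8 of the 36 arrays of the series, the 4 whose titles read hom 4h and the 4 whose titles read het 4h, numbered E3 to E6 in each group and called replicates 1 to 4 here. The tested cells are Malt1-/- (KO) and their controls are Malt1+/- (het). The same titles also give both genotypes at 0 and 1 h, and another genotype, Malt1PM/- (PM), in which a paracaspase-mutant allele faces a null allele. All animals carry the strain label B6.C-Tg(CMV-cre)1Cgn/J, a line in which the CMV promoter drives Cre recombinase, and no wild-type group is among the arrays. The labels describe either negatively selected total T cells or isolated CD4+ cells, and either PMA with ionomycin or antibodies to CD3 and CD28 as the stimulus, and they do not tie these alternatives to arrays. They give no age. The design text counts 3 biological replicates while the titles list 4, and nothing says that these came from separate mice, so each p-value measures the spread between samples that may be technical repeats.

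MALT1 is a scaffold and a protease. After antigen receptor stimulation it joins BCL10 in a complex that recruits the kinases that free NF-kB from its inhibitors, and as a paracaspase it cuts regulators of NF-kB and of mRNA stability, among them A20, CYLD, RelB, Regnase-1 and Roquin-1. In T cells the NF-kB dimers that follow are known for switching on cytokines, TNF family members and survival genes, while the calcium and MAP kinase branches of receptor signalling run through NFAT and AP-1.

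Signals are given on a log2 scale after background correction, quantile normalization and an offset of 16, so that a difference of 1 is a 2-fold difference and dim genes are compressed. A gene was called changed when its Benjamini-Hochberg adjusted p in limma was under 0.05 over the 7585 genes tested. Between 7713 and 9899 of 25697 probes were detected on the 8 arrays, and an array correlated with the others of its group at 0.953 to 0.986. T cell identity was clear in both groups: 12 of 14 marker genes had a probe on the array and passed the detection filter, and all 12 were detected on all 8 arrays. Levels of different genes come from different probes and are not compared with each other.

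Malt1 itself was lower in KO cells. The Malt1 probe read 5.49, 6.24, 5.70 and 5.84 on the KO arrays, against 6.96, 7.56, 7.43 and 7.21 on the het arrays. The 2 groups did not overlap, and every KO array still gave a signal above background. The difference was -1.47 ± 0.23 (log2, SE, n = 4 each, limma adjusted p = 3.55e-05), 2.78-fold lower in KO, and -0.70 without background correction. Where this probe lies relative to the deleted part of the gene is not known, so the remaining signal cannot be assigned to an intact or a truncated transcript.

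At 4 h, KO cells differed from het cells in 663 genes (8.74% of those tested), 391 of them higher in KO (5.15%) and 272 lower (3.59%). The median over all genes tested was 0.01. At least 2-fold differences were seen for 53 of the higher and 55 of the lower genes. For 329 of the higher genes and 219 of the lower ones the 4 KO values and the 4 het values did not overlap, where 1014 of all genes (13.4%) showed no overlap. Replicate numbers were taken to pair the KO and het arrays at 4 h. With the replicate number as a block 1153 genes were called, 657 higher and 496 lower, among them all 663. The split between higher and lower genes depended on the scaling: with each array scaled to its median in place of quantile normalization, 73 genes were called, 18 higher and 55 lower (24.7% higher), and with no background correction 711 were called, 333 higher and 378 lower (46.8% higher). Of the 663 calls, 69 were kept with median scaling, and this loss is not repeated below for every gene. The background correction also sets the size of the differences of dim genes: without it, 24 of the 104 genes rerun in every alternative moved by over 1.5 times, all 24 toward 0, and their values without it are given below.

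**Figure D1:**
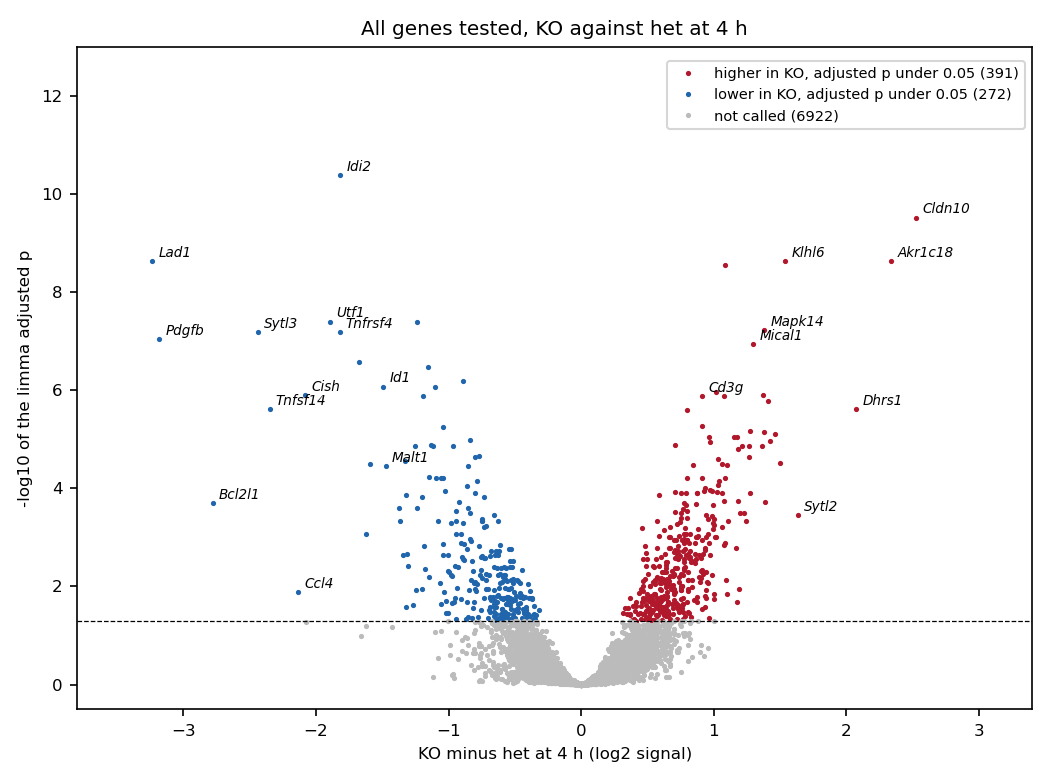
Each point is 1 of 7585 genes, with KO minus het at 4 h on the x axis (log2 signal) and -log10 of the limma adjusted p on the y axis; red points were called higher in KO (391), blue points lower (272), and the dashed line marks an adjusted p of 0.05. The falls reach -3.23 (Lad1) and the rises 2.53 (Cldn10).

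Few genes were called at the earlier times. Before stimulation 4 genes were called between KO and het (0.0527% of those tested) and at 1 h again 4 (0.0527%), all lower in KO. At an unadjusted p under 0.05 there were 116 genes at 0 h, 172 at 1 h and 1579 at 4 h. The counts at 0 and 1 h are below the share of 0.05 of all 7585 genes that chance alone would give. The fit without the block may therefore miss differences at these times, and the block was not run for them. Of the genes called at 4 h, Malt1 and Ppic were also called at 0 h, and Malt1, Ppic and Tnf at 1 h. The genes called lower at 4 h had a median KO minus het difference of -0.03 at 0 h, -0.05 at 1 h and -0.68 at 4 h. For the genes called higher these medians were 0.02, 0.05 and 0.71, and the 4 h values of both sets follow from how the sets were chosen. The test of the change itself, the 4 h response of KO minus that of het, called 151 genes (1.99%), 97 with a higher and 54 with a lower response in KO.

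**Figure D2:**
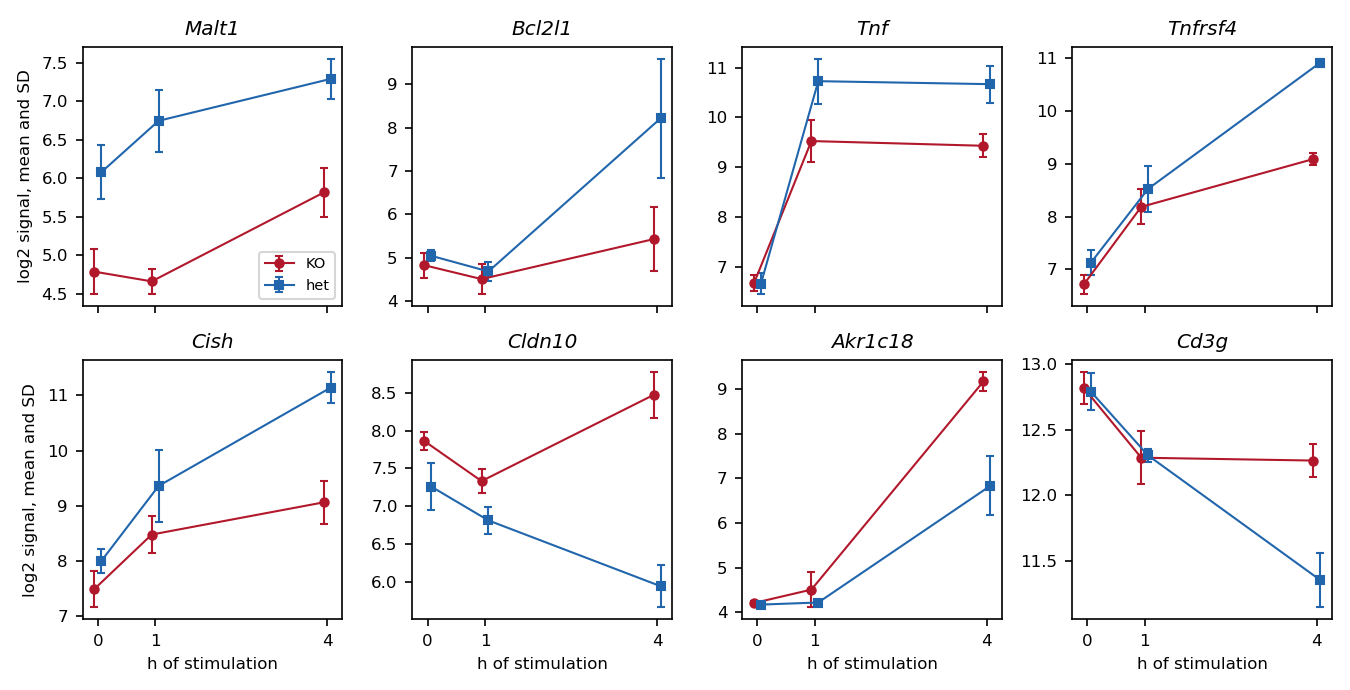
Mean and SD (n = 4) of the log2 signal at 0, 1 and 4 h of stimulation in KO (red circles) and het (blue squares) for 8 genes. Bcl2l1, Tnfrsf4, Cish, Akr1c18 and Cd3g separate mainly at 4 h, Tnf is already lower in KO at 1 h (-1.20), and Malt1 is lower in KO at all times.

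Among the NF-kB targets, 8 of the 25 tested were lower in KO and 0 were higher, with a list median of -0.49. Over all genes tested 3.59% were called lower and 5.15% higher, and these shares belong beside every list count below. The lists were chosen with earlier results of these data known, so their counts and medians are a description. The lower NF-kB targets were Bcl2l1, Tnfsf14, Tnfrsf4, Stat5a, Tnf, Lta, Ier3 and Il2ra. With the replicate block 10 of the 25 were lower, where 496 of all 7585 genes were. With median scaling 4 of the 25 were lower, where 55 of all genes were.

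Bcl2l1 encodes Bcl-xL, a survival protein of the BCL2 family. Its probe read 6.10, 5.35, 5.83 and 4.44 in KO cells and 9.18, 8.20, 9.19 and 6.27 in het cells. The groups did not overlap, although het replicate 4 lay far below the other het arrays and just above the highest KO array, and 1 of the 4 KO arrays was at background. The fall was -2.78 ± 0.48 (log2, SE, adjusted p = 0.000198), 6.86-fold. It was -1.52 without background correction, -2.13 with the mean of its probes and -3.43 without het replicate 4. A further Bcl2l1 probe gave -1.48. Bcl2, the related survival gene, went the other way: 8.23, 8.16, 7.92 and 8.07 in KO cells against 6.76, 7.28, 7.0 and 7.02 in het cells, a rise of 1.08 (adjusted p = 0.00141) without overlap. Another 5 Bcl2 probes gave 0.83 to 0.97. The Bcl2 call was lost with median scaling (adjusted p = 0.666). The other BCL2-family and caspase genes that passed were Bid, a death agonist (-0.77, adjusted p = 0.00152), and Casp8, an initiator caspase that also acts in NF-kB signalling (0.65, adjusted p = 0.00966). In all, 2 of 21 survival and death genes were higher in KO and 2 lower, and the block added Bcl2l11 (-0.88) and Casp4 (-1.06) as lower.

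Tnfsf14 encodes LIGHT, a TNF family ligand. It read 5.58, 5.12, 5.85 and 6.39 in KO cells and 8.01, 7.68, 8.25 and 8.39 in het cells, with no overlap. The fall was -2.35 ± 0.30 (adjusted p = 2.45e-06), 5.10-fold, and -1.24 without background correction. Tnf, the founding cytokine of the family, read 9.15, 9.36, 9.55 and 9.67 in KO and 10.12, 10.78, 10.92 and 10.87 in het cells, again apart, and was 2.36-fold lower (adjusted p = 0.000256). Lta, lymphotoxin alpha, was 2.08-fold lower (adjusted p = 0.0223), a call lost in 8 of 20 alternative settings. Fasl, the death ligand, was 1.54-fold higher (adjusted p = 0.0156). Of 8 ligand genes tested 3 were thus lower and 1 higher, and Ltb, the partner of Lta on the cell surface, was at 9.26 ± 0.42 in KO and 9.12 ± 0.61 in het (SD, n = 4).

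Among the receptors of the same family, Tnfrsf4 (OX40, a costimulatory receptor of activated T cells) stood clearly apart between the groups. It read 9.21, 8.93, 9.06 and 9.15 in KO cells and 10.85, 10.84, 10.98 and 10.96 in het cells. The gap between the groups was several times the spread within them, and the fall was -1.82 ± 0.19 (adjusted p = 6.52e-08), 3.53-fold. Tnfrsf18 (GITR) was 2.27-fold lower (adjusted p = 0.00147) and Tnfrsf25 (death receptor 3) 2.08-fold lower (adjusted p = 6.09e-05). Cd27, a costimulatory receptor of naive and resting T cells, was 1.71-fold higher (adjusted p = 0.000265), and Tnfrsf26 was also higher (0.94, adjusted p = 0.0259, lost in 9 of 20 settings, and 0.26 without background correction). With median scaling the calls of Tnfrsf18, Tnfrsf25 and Cd27 were lost (adjusted p = 0.0521, 0.180 and 0.915). Tnfrsf9 (4-1BB), another receptor induced by activation, was at 9.26 ± 0.39 in KO and 9.06 ± 0.22 in het cells (adjusted p = 0.600).

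Of 11 genes of the MALT1 complex and its partners Casp8 and Prkcq (0.50, adjusted p = 0.0175) were higher and Malt1 lower, and of 10 substrate genes Zc3h12d was higher and Zc3h12a lower. Of the 4 NF-kB subunit genes tested 0 were called, with differences from -0.43 (Rel) to -0.01 (Rela). Of the 11 inhibitor and feedback genes 1 was called, Nfkbid, which encodes the nuclear regulator IkBNS. It read 11.21, 11.54, 11.18 and 11.15 in KO cells, all below the 12.22, 12.38, 12.36 and 12.24 of het cells (-1.03 ± 0.17, adjusted p = 0.000111). The Nfkbid call was lost with median scaling (adjusted p = 0.210). Nfkbia, the classical inhibitor and feedback target, differed by -0.36 (adjusted p = 0.479) and Tnfaip3, which encodes A20, by -0.39 (adjusted p = 0.726).

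Regnase-1 and Roquin-1 destabilize selected mRNAs, and MALT1 is known to cut both. Of 14 genes listed as their targets 7 were lower in KO and 1 was higher, with a list median of -0.71. Of all genes 3.59% were called lower and 5.15% higher. This list too was chosen with earlier results of these data known, so its counts are a description. The lower targets overlap with the NF-kB targets in Tnfrsf4, Tnf, Ier3 and Il2ra. Furin, a proprotein convertase, averaged 8.51 ± 0.35 in KO cells and 9.76 ± 0.32 in het cells (SD, n = 4 each, difference -1.25 ± 0.18, adjusted p = 1.38e-05), without overlap. The Furin call was lost with median scaling (adjusted p = 0.0877). Zc3h12a, which encodes Regnase-1 and is listed as its own target, was 1.62-fold lower (adjusted p = 0.0308) with overlapping values, while its relative Zc3h12d was 1.63-fold higher (adjusted p = 0.00589). The 1 higher target was the early response factor Egr1 (0.82, adjusted p = 0.00253). With median scaling 2 of the 14 were lower.

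Promoter windows were read for the NF-kB site, since the falls include its listed targets. In RefSeq windows of 300 bases (250 before to 50 after the start, build GRCm38.p6, 1 window per gene, both strands), the kappaB consensus was found in 16 of 220 genes called lower in KO (7.27%) and in 15 of 316 called higher (4.75%), against 5.04% of the 6274 tested genes with a window and 4.35% of all 27025 windows. The AP-1 motif TGANTCA was in 2.27% of the lower and 4.75% of the higher genes, against 4.97% of tested genes, and the CRE motif TGACGTCA in 3.18% and 0.949%, against 3.27%. Of the 21 lower genes not on the chromosome of Malt1 that are among the 15 largest falls or the NF-kB and Regnase lists, 18 had a window, and 2 held a kappaB match in the 1 window per gene that the shares above use. Of the 15 largest falls, 10 had a window and 0 held a match in it. Counting every window of the 18 genes, for which no background share was computed, 5 held a match: Bcl2l1, Stat5a, Ier3, Nfkbid and Il2ra. The windows of Lad1, Idi2, Utf1, Cldn10, Klhl6 and Akr1c18 held none of the 3 motifs. Of these promoters 4, chosen after the matches were seen, are printed as the 250 bases before the start on the gene's strand, 5′ to 3′, with the kappaB matches in capitals. They are Bcl2l1 (chr2:152830718-152830967, minus strand, 1 of its 3 windows), Ier3 (chr17:35821463-35821712, plus strand), Nfkbid (chr7:30422156-30422405, plus strand, 1 of its 3 windows) and Il2ra (chr2:11642542-11642791, plus strand).
Bcl2l1: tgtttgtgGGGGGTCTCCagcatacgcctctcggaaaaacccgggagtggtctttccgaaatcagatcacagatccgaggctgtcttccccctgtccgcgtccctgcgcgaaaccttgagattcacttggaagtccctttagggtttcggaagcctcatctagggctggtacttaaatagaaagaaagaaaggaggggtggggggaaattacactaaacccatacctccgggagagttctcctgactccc
Ier3: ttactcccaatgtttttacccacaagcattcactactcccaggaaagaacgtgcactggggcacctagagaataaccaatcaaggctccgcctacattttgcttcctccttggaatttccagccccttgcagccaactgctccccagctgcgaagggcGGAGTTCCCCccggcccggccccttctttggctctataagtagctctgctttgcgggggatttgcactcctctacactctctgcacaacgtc
Nfkbid: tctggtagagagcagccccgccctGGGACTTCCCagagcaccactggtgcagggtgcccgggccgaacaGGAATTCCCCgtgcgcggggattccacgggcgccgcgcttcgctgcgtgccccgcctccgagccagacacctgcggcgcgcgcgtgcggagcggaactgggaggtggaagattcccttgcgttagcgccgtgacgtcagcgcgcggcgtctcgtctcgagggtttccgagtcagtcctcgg
Il2ra: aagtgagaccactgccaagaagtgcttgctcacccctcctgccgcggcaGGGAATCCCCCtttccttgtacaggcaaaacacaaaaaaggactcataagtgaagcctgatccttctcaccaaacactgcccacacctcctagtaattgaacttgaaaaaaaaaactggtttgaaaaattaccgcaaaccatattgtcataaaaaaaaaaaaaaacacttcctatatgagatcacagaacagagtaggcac
The matches begin 242 bases before the start in Bcl2l1, 92 in Ier3, 226 for the first of 2 in Nfkbid, and 201 in Il2ra, where 2 matches overlap. The Nfkbid window also holds the CRE motif, outside its kappaB matches. A match describes these letters and does not show binding.

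**Figure D3:**
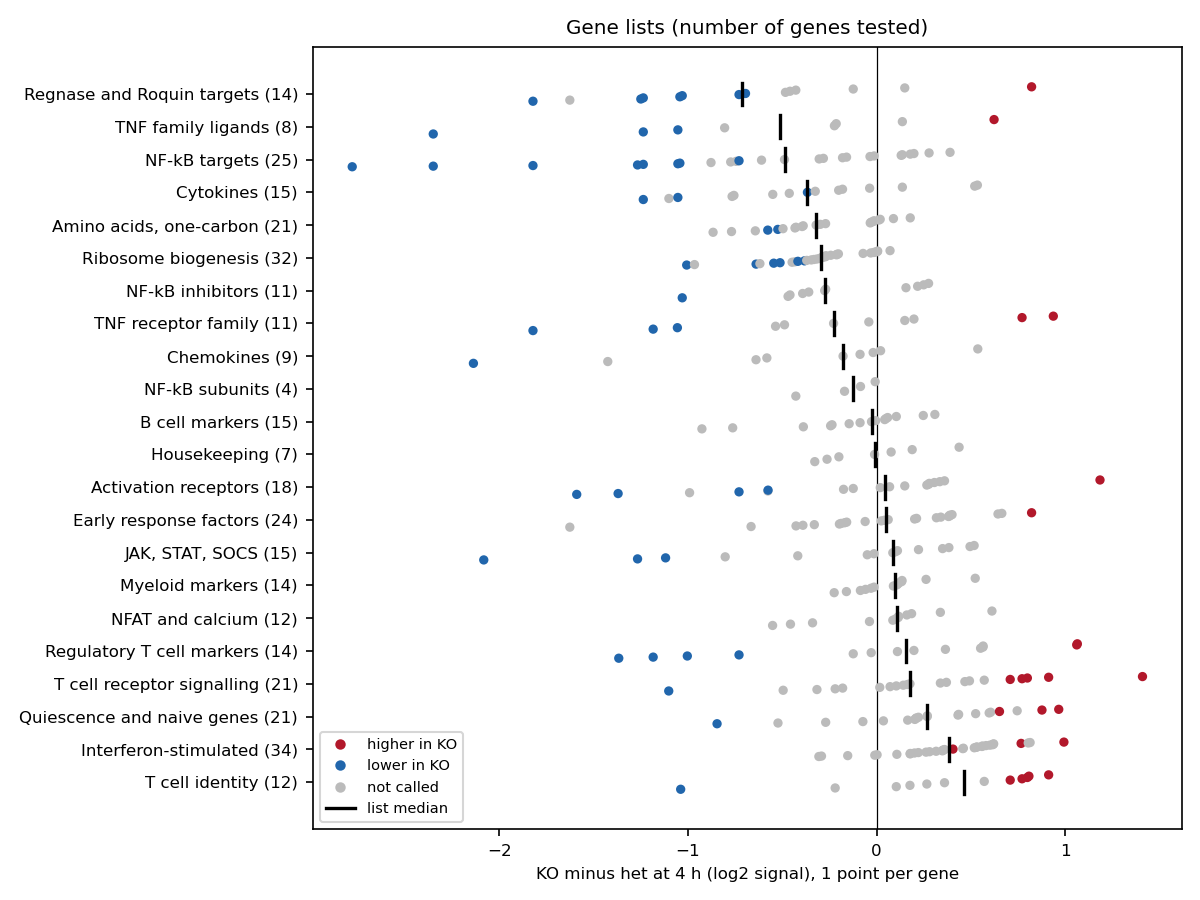
Each point is a gene of the list named on the left, with the number of genes tested in brackets; the x axis is KO minus het at 4 h (log2 signal), red and blue points were called higher and lower in KO, and black bars are list medians. Medians run from -0.71 (Regnase and Roquin targets) to 0.47 (T cell identity).

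Cytokine and chemokine calls were all falls in KO, and 3.59% of all genes were called lower. Of 15 cytokine genes 3 were lower (Tnf, Lta and Mif, the last by 0.37 on the log2 scale with adjusted p = 0.0388) and 0 higher. With the replicate block 7 were lower, where 496 of all 7585 genes were, the added ones being Ifng, Il3, Lif and Tgfb1. Lif, a cytokine of the interleukin-6 family, differed by -1.10 (adjusted p = 0.0859 without the block and 0.0153 with it). Of 9 chemokine genes 1 was called, Ccl4, an inflammatory chemokine. It read 10.06, 9.86, 10.53 and 10.63 in KO cells and 12.16, 11.68, 13.03 and 12.76 in het cells, apart but with a wide spread. The fall of -2.14 ± 0.57 (adjusted p = 0.0132) was 4.40-fold, and it missed the threshold without het replicate 3 and without replicate 4, where the adjusted p reached 0.0704. A second Ccl4 probe gave -2.34. Its neighbour in function, Ccl3, was at 7.68 ± 0.52 in KO and 9.11 ± 0.80 in het cells, a difference of -1.42 that passed with the replicate block (adjusted p = 3.68e-05) and not without it (0.0658).

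Of 15 JAK, STAT and SOCS genes Cish, Jak2 and Stat5a were lower in KO and 0 were higher, and the list median of 0.09 became -0.06 with median scaling. Cish, a SOCS-family inhibitor that STAT5 induces, read 9.59, 8.63, 9.01 and 9.01 in KO cells and 11.20, 10.76, 11.45 and 11.16 in het cells. Every KO array was below every het array, and the fall was -2.08 ± 0.26 (adjusted p = 1.27e-06), 4.23-fold. Jak2, a cytoplasmic kinase of cytokine receptor signalling, read 9.95, 9.45, 9.71 and 9.80 in KO and 10.92, 10.94, 10.86 and 10.65 in het cells. It was 2.17-fold lower (adjusted p = 1.34e-05), a call lost with median scaling (adjusted p = 0.152). The other kinases of its family, Jak1 (0.38), Jak3 (-0.01) and Tyk2 (-0.80), were not called, Tyk2 only with the block (adjusted p = 0.00180). Stat5a, which encodes a STAT5 protein, was 2.41-fold lower (adjusted p = 0.0244), and this call was lost in 5 of 20 settings. Il2ra, the high-affinity chain of the interleukin-2 receptor, was 1.66-fold lower (adjusted p = 0.00265). Of 14 cytokine receptor genes Ifngr2 and Il6st were higher (0.81 and 0.76) and Il2ra lower, and 5 were called with the replicate block. These calls were lost in 4, 5 and 2 of 20 settings, and the dimmer Ifngr2 probes gave only 0.07 and 0.14.

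Activation receptor genes were called in both directions. Of 18 tested, 4 were lower and 1 was higher, and the list median of 0.04 became -0.09 with median scaling. Tfrc, the transferrin receptor through which dividing cells take up iron, read 10.09, 10.31, 10.81 and 10.41 in KO cells and 11.87, 11.51, 12.09 and 12.52 in het cells. It was 3.01-fold lower without overlap (adjusted p = 3.17e-05). Cd200, an inhibitory ligand, was 2.58-fold lower (adjusted p = 0.000256), with a difference of -0.47 without background correction, and Cd69, an early activation marker, 1.49-fold lower (adjusted p = 0.0107). Cd28, the main costimulatory receptor, was the exception: 11.38, 11.39, 11.09 and 10.79 in KO cells, all above the 10.11, 10.37, 9.78 and 9.65 of het cells, 2.27-fold higher (adjusted p = 1.61e-05). The Cd28 call was lost with median scaling (adjusted p = 0.302) and with the mean of its probes. Icos and Ctla4, both induced by activation, differed by 0.15 and -0.12 (adjusted p = 0.836 and 0.850).

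Early response and calcium genes were counted beside the 8.74% of all genes called in either direction. Lists this short cannot show a share below that of all genes. Of 24 early response factors 1 was called, Egr1, higher in KO. The block added Egr2 (0.66, adjusted p = 0.0107) as higher and Myc (-1.63, adjusted p = 0.0192) and Batf (-0.67, adjusted p = 0.0447) as lower. Myc, the growth regulator, read 7.51, 7.63, 7.26 and 7.06 in KO cells and 9.23, 8.81, 9.13 and 8.80 in het cells, so that these 8 values stood well apart, yet its adjusted p without the block was 0.0654. Of 12 NFAT and calcium genes 0 were called in limma, and 2 were called with the block, Ppp3cc higher (0.61) and Nfat5 lower (-0.55). Of 7 MAP kinase phosphatase and Sprouty-type genes Dusp4 was called lower (-0.79, adjusted p = 0.00889), and with the block Dusp10 also, as higher (0.65). Of 11 lineage factors Rora, a factor of Th17 and innate lymphoid cells, was called lower (-1.18, adjusted p = 0.00436, and -0.39 without background correction), with a probe detected on 2 of 4 KO arrays. The block added Bcl6 (0.83) as higher and Irf8 (-0.71) as lower.

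Of 32 ribosome biogenesis genes 6 were lower in KO, against 3.59% of all genes, and 0 higher, with a median of -0.29. They were Polr1c, a subunit of RNA polymerases I and III (-1.01), Nip7 (-0.64), Heatr1 (-0.55), the nucleolar protein gene Ncl (-0.51), Mrto4 (-0.42) and Wdr75 (-0.38). With the block 10 were lower, and with median scaling 0, although the list median was then -0.45. Of 16 glycolysis genes 1 was called, Hk2, the hexokinase induced by activation. It read 8.47, 8.91, 9.17 and 9.16 in KO cells and 10.40, 9.82, 10.12 and 10.61 in het cells, 2.49-fold lower without overlap (adjusted p = 0.00213), and it was called in all 20 alternative settings. With the block 4 glycolysis genes were lower and 3 higher. Of 21 amino acid and one-carbon genes 2 were lower, Slc7a5, a chain of the large neutral amino acid transporter (-0.58, adjusted p = 0.00707), and Shmt2, the mitochondrial serine hydroxymethyltransferase (-0.52, adjusted p = 0.0184), and 6 were lower with the block. Of 18 cholesterol genes 0 were called with or without the block. Among 21 cell cycle genes Ccnd3 (0.72) and Rb1 (0.57) were higher and Cdkn1a (-0.87) lower, the last 2 lost in 10 and 13 of 20 settings.

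The remaining large falls were of mixed roles. Lad1, which encodes a protein of the basement membrane, gave the largest fall: 5.41, 4.84, 6.10 and 6.38 in KO cells against 9.40, 7.75, 9.06 and 9.46 in het cells. The groups were apart by more than 1 log2 unit, and the fall of -3.23 ± 0.29 was 9.40-fold (adjusted p = 2.31e-09). Pdgfb, the B chain of platelet-derived growth factor, read 5.14, 5.84, 6.37 and 7.03 in KO and 8.70, 9.10, 9.65 and 9.66 in het cells, 9.08-fold lower (adjusted p = 9.00e-08). Sytl3, a synaptotagmin-like effector of Rab27 in vesicle transport, read 5.38, 5.06, 6.30 and 5.84 in KO and 8.39, 7.44, 8.20 and 8.29 in het cells, 5.41-fold lower (adjusted p = 6.52e-08). In both genes the groups were apart. Without background correction the falls were -1.92 for Lad1, -2.04 for Pdgfb and -1.28 for Sytl3.

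Idi2, a paralogue of the isopentenyl diphosphate isomerase of sterol synthesis, had the lowest adjusted p of the named genes. It read 4.79, 5.05, 4.86 and 4.47 in KO cells, above background on 2 of 4 arrays, and 6.49, 6.25, 6.74 and 6.96 in het cells (-1.82 ± 0.13, adjusted p = 4.14e-11). Plscr1, a phospholipid scramblase, was 3.08-fold lower (adjusted p = 0.000859). Utf1 and Id1 were above background on 0 of 4 KO arrays and on 4 of 4 het arrays, so that their folds are lower bounds, the het mean against the higher of the probe's own value and the lowest detected signal of each KO array. Utf1, a transcription factor known from embryonic stem cells, averaged 4.66 ± 0.27 in KO and 6.55 ± 0.72 in het cells (SD, n = 4), at least 3.10-fold lower (adjusted p = 3.96e-08). Id1, an inhibitor of E-protein transcription factors, averaged 4.61 ± 0.26 in KO and 6.10 ± 0.40 in het cells, at least 2.28-fold lower (adjusted p = 8.42e-07). Without background correction the differences were -0.62 for Idi2, -0.90 for Plscr1, -0.65 for Utf1 and -0.44 for Id1.

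**Figure D4:**
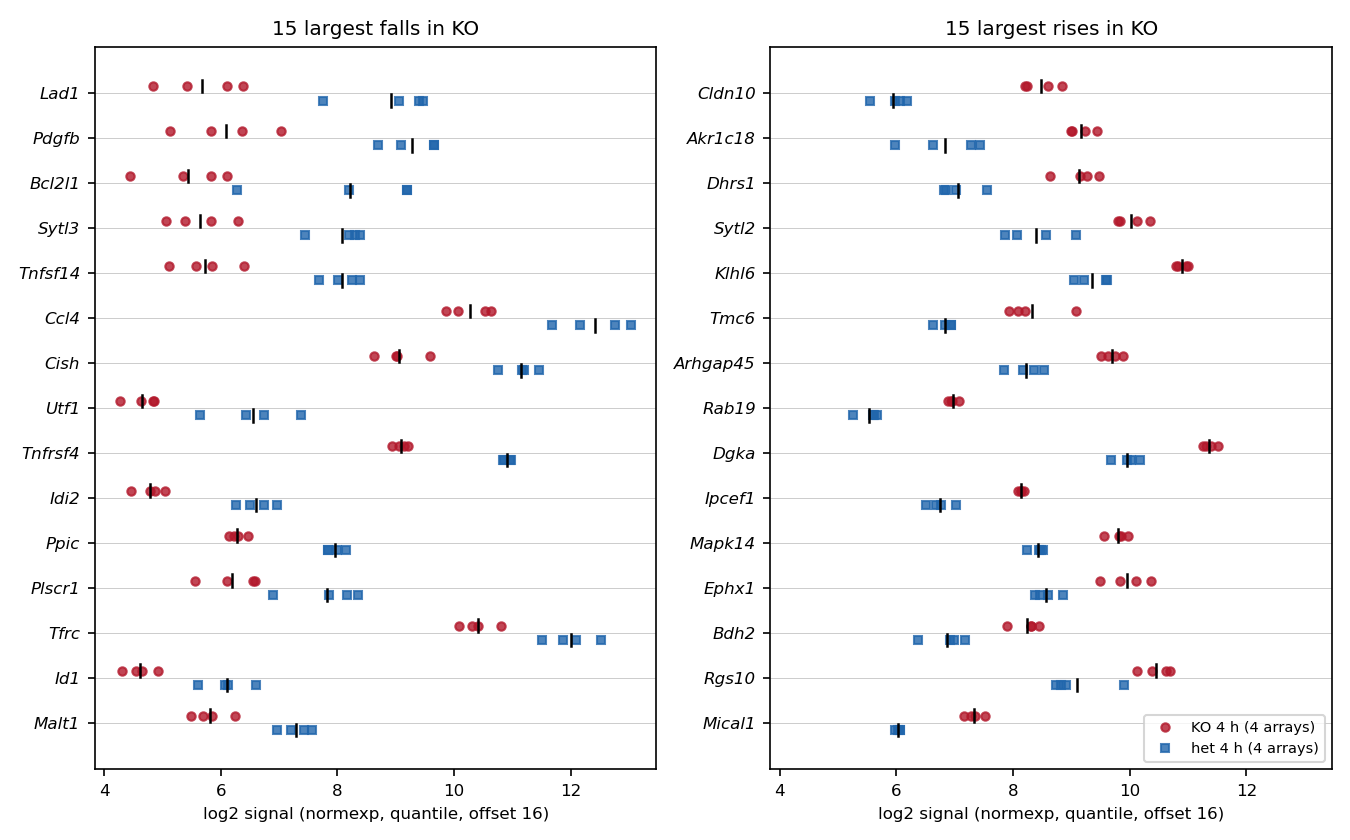
The log2 signal of each array for the 15 largest falls (left) and the 15 largest rises (right) among genes called without overlap, with KO arrays as red circles above het arrays as blue squares and the group means as black bars. The KO and het points of every gene shown are apart, since absence of overlap was a condition, and the distance between means runs from -3.23 to -1.47 among the falls and from 1.30 to 2.53 among the rises.

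The largest rise was that of Cldn10, a claudin of tight junctions. It read 8.84, 8.24, 8.20 and 8.60 in KO cells and 6.07, 5.98, 5.55 and 6.19 in het cells. Its lowest KO array was about 2 log2 units above its highest het array, and the rise of 2.53 ± 0.20 was 5.76-fold (adjusted p = 3.01e-10). A further pair of Cldn10 probes gave 2.14 and 1.78. Akr1c18, a hydroxysteroid dehydrogenase that inactivates progesterone, read 9.44, 9.24, 8.99 and 9.01 in KO and 5.98, 7.43, 6.64 and 7.28 in het cells, 5.06-fold higher (adjusted p = 2.31e-09). Dhrs1, a short-chain dehydrogenase, read 8.64, 9.47, 9.15 and 9.27 in KO and 6.85, 7.56, 6.81 and 7.02 in het cells, 4.21-fold higher (adjusted p = 2.43e-06). For both genes every KO array was above every het array. Without background correction the rises were 1.47 for Cldn10, 1.61 for Akr1c18 and 1.48 for Dhrs1.

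Dgka, the diacylglycerol kinase that ends diacylglycerol signals and is high in resting T cells, read 11.31, 11.25, 11.40 and 11.51 in KO and 10.18, 10.02, 9.67 and 9.95 in het cells. The groups were apart, and the rise was 2.66-fold (adjusted p = 1.62e-06). Mapk14, the kinase p38 alpha, was 2.60-fold higher (adjusted p = 5.87e-08), Rgs10, which shortens G protein signals, 2.57-fold (adjusted p = 1.34e-05), and Arhgap45 2.76-fold (adjusted p = 7.95e-06). Sytl2, like Sytl3 a Rab27 effector, was 3.10-fold higher (adjusted p = 0.000346), in the opposite direction to Sytl3, and the small GTPase gene Rab19 was 2.69-fold higher (adjusted p = 1.07e-05). Klhl6, a substrate adaptor of a ubiquitin ligase, was 2.91-fold higher (adjusted p = 2.31e-09). The other named rises were Tmc6 (2.82-fold) and, as log2 differences, Ipcef1 (1.39), the epoxide hydrolase gene Ephx1 (1.38), the hydroxybutyrate dehydrogenase gene Bdh2 (1.37) and Mical1 (1.30), which acts on actin filaments. Without background correction Rab19 differed by 0.60 and Mical1 by 0.65. With median scaling, the calls of Sytl2, Ipcef1, Rgs10 and Mical1 were lost, with adjusted p up to 0.307.

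Of 12 T cell identity genes 5 were higher and 1 lower, with the highest median of the lists (0.47). Of 21 receptor signalling genes 5 were higher and 1 lower (median 0.18). Over all genes 5.15% were called higher and 3.59% lower. The 2 lists share the CD3 genes and Cd2. Cd3g, a chain of the receptor complex, read 12.26, 12.44, 12.23 and 12.13 in KO cells and 11.41, 11.62, 11.18 and 11.19 in het cells, 1.88-fold higher without overlap (adjusted p = 1.33e-06). Cd3d was 1.74-fold (adjusted p = 2.49e-06) and Cd3e 1.63-fold higher (adjusted p = 1.28e-05), and so were the adhesion receptor gene Cd2 (0.77) and the T lineage factor gene Bcl11b (0.81, lost in 8 of 20 settings). Thy1, a surface glycoprotein of T cells, was lower instead: 11.01, 9.91, 10.85 and 10.91 in KO against 11.98, 11.19, 11.80 and 11.88 in het cells (-1.04, adjusted p = 0.00137). Sh2d1a, which encodes the adaptor SAP, was 2.15-fold lower (adjusted p = 8.42e-07). With median scaling the CD3 rises lost their calls and the identity list kept a median of 0.32.

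Of 21 genes of quiescent and naive cells 3 were higher, Txnip (0.97, adjusted p = 0.0442), Tsc22d3 (0.88, adjusted p = 0.0211) and Foxo1 (0.65, adjusted p = 0.0243), all with overlapping values, against 5.15% of all genes called higher. These were lost in 11, 8 and 7 of 20 settings. Igfbp4 was lower (-0.85, adjusted p = 0.0118). With the block 5 were higher, Klf2 (0.74, adjusted p = 0.00642) and Il7r (0.60, adjusted p = 0.0375) being the added ones. Of 34 interferon-stimulated genes 3 were higher, against the same 5.15% of all genes, and 0 lower (median 0.38). They were Tgtp1 (0.99, adjusted p = 0.000515), Ifi27l2a (0.77, adjusted p = 0.0227) and Irgm1 (0.40, adjusted p = 0.0243), the last 2 lost in 8 of 20 settings each. With the block 6 were higher, and with median scaling 0 of either list. Of 12 homing genes Selplg was higher (0.50) and Itgav lower (-0.64), lost in 7 and 9 settings.

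Markers of regulatory T cells split at 4 h. Of 14 tested, Foxp3, Tnfrsf18, Ebi3 and Il2ra were lower and Nrp1 and Gpr83 higher, and with the block 5 were higher. Their summed signals at 4 h were 2027 to 2578 on KO and 2520 to 3356 on het arrays. Before stimulation the sums were already lower in KO, 779 to 1027 against 1099 to 1474. The list median was then -0.37, with 0 of its genes called, and the sums were not tested. Foxp3, the master factor of regulatory T cells, read 4.70, 4.87, 4.96 and 5.28 in KO cells and 6.36, 5.62, 6.36 and 6.93 in het cells, 2.58-fold lower without overlap (adjusted p = 0.000453). It was called in all 20 alternative settings, although the difference was -0.46 without background correction, against -1.37 with it. Before stimulation the Foxp3 difference was -0.97 (adjusted p = 0.486), and its 4 h response did not differ between the genotypes beyond the threshold (-0.40, adjusted p = 0.806). Nrp1 (1.06, adjusted p = 0.000122) and Gpr83 (1.06, adjusted p = 0.000625) moved opposite to Foxp3. With median scaling both lost their calls (adjusted p = 0.0767 and 0.405). Without background correction Nrp1 differed by 0.32 and Ebi3 by -0.31. In such bulk RNA, fewer cells of a type and less RNA per cell cannot be told apart.

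Few markers of other cells were called. Of 15 B cell markers tested (of 20 listed) 0 were called, with summed signals of 1320 to 7670 on KO arrays and 1630 to 7995 on het arrays. The block called 2 of them lower. Cd79a, Cd79b, Fcer2a, Fcrla, Fcmr, Cd74, H2-Aa, H2-Ab1 and H2-Eb1 were detected on all 8 arrays, and Pax5, Ebf1, Cr2 and Ms4a1 on none. Transcripts of B cells were thus present in both groups. Of 14 myeloid markers (of 26) 0 were called, with sums of 828 to 1877 in KO and 706 to 1663 in het. Lyz1, Lyz2, S100a8, S100a9, Fcer1g and Cst3 were detected on all 8 arrays, and Itgam, Itgax, Adgre1 and Spi1 on none. CD8 and NK lists had 1 call each, the shared receptor gene Klrd1, which read 7.30, 7.45, 7.11 and 7.35 in KO and 5.91, 6.35, 6.02 and 6.03 in het cells (2.34-fold higher, adjusted p = 0.000323, and 0.61 on the log2 scale without background correction). Cd8b1 was at 8.75 ± 0.23 in KO and 8.37 ± 0.26 in het cells (adjusted p = 0.360), while Cd4 was near background, detected on 5 of the 8 arrays. CD4 (3 genes), erythroid (3) and gamma-delta (2) lists had 0 calls, as had 16 chaperone and 7 housekeeping genes. The block added as lower Ctsw (-0.74) and Nkg7 (-0.83) of the CD8 list, the second also of the NK list, Blk (-0.93) of the B cell and gamma-delta lists, the plasma cell gene Mzb1 (-0.80) and the chaperone gene Hspa9 (-0.42). Of 2 plasma cell genes Xbp1, also a factor of the unfolded protein response, was higher (0.59, adjusted p = 0.000929). The part of other cell types in the differences above was not tested.

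The KO genes were also set against the stimulation response of PM cells, whose arrays enter neither the KO nor the het mean. In PM cells 760 genes (10% of those tested) stood at least 1 log2 unit higher at 4 h than at 0 h, and 914 (12.1%) at least 1 lower. Of the 272 genes called lower in KO, 150 (55.1%) had risen by at least 1 in PM cells and 9 (3.31%) had fallen that far. Of the 391 called higher in KO, 208 (53.2%) had fallen by at least 1 in PM cells and 17 (4.35%) had risen. Among the 15 largest falls 12 had risen by at least 1 in PM cells, and among the 15 largest rises 8 had fallen. Akr1c18 was a rise among the largest that PM cells also induced, by 2.77, and Bdh2 another, by 2.62. These shares are a description, since genes of 1 pathway are not independent.

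KO cells at 4 h were also set against PM cells at 4 h, which have the paracaspase-mutant allele in place of none. KO against PM at 4 h called 213 genes (2.81%), 109 higher and 104 lower in KO. This comparison shares the KO arrays with the one above, so counts of the same genes are not separate evidence: 8 of the 15 largest falls and 13 of the 15 largest rises were called in it. Cish was at 9.06 ± 0.39 in KO, 11.24 ± 0.47 in PM and 11.14 ± 0.28 in het cells (SD, n = 4 each), so PM stood at the het level and KO differed from PM by -2.18 (adjusted p = 1.98e-06). Plscr1 had the same order, with 6.20 in KO, 7.79 in PM and 7.82 in het cells. Cldn10 averaged 8.47 ± 0.30 in KO, 5.81 ± 0.48 in PM and 5.95 ± 0.28 in het cells (KO minus PM 2.66, adjusted p = 1.51e-10), and Akr1c18 9.17, 6.96 and 6.83.

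Other falls had PM near the KO level. Pdgfb averaged 6.09 ± 0.80 in KO, 6.11 ± 0.77 in PM and 9.28 ± 0.47 in het cells, with a KO minus PM difference of -0.02 (adjusted p = 0.999) and a 95% interval of the difference from -0.71 to 0.68. Id1 averaged 4.61 in KO, 4.71 in PM and 6.10 in het cells. Its KO arrays were at background, and the lowest detected signals of the PM arrays were 4.67 to 5.11, so near background KO and PM levels of Id1 cannot be told apart. Tnf averaged 9.43, 9.65 and 10.67 and was not called between KO and PM, which does not show that the 2 are equal. Lad1, Idi2 and Tnfrsf4 lay between: Lad1 averaged 5.68 in KO, 7.83 in PM and 8.92 in het cells, Idi2 4.79, 5.89 and 6.61, and Tnfrsf4 9.09, 9.97 and 10.91, each lower in KO than in PM (adjusted p = 1.26e-05, 1.98e-06 and 0.00586). The cytokine genes Il4 (-2.96, adjusted p = 1.18e-06), Il3 (-2.14, adjusted p = 2.54e-06) and Ifng (-1.98, adjusted p = 0.000272) were lower in KO than in PM. Against het they differed by only -0.20, -0.76 and -0.77, so their PM means lay above the het means as well. None of them was called against het without the block, and Il3 and Ifng were called lower with it (adjusted p = 0.0134 and 0.0141).

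**Figure D5:**
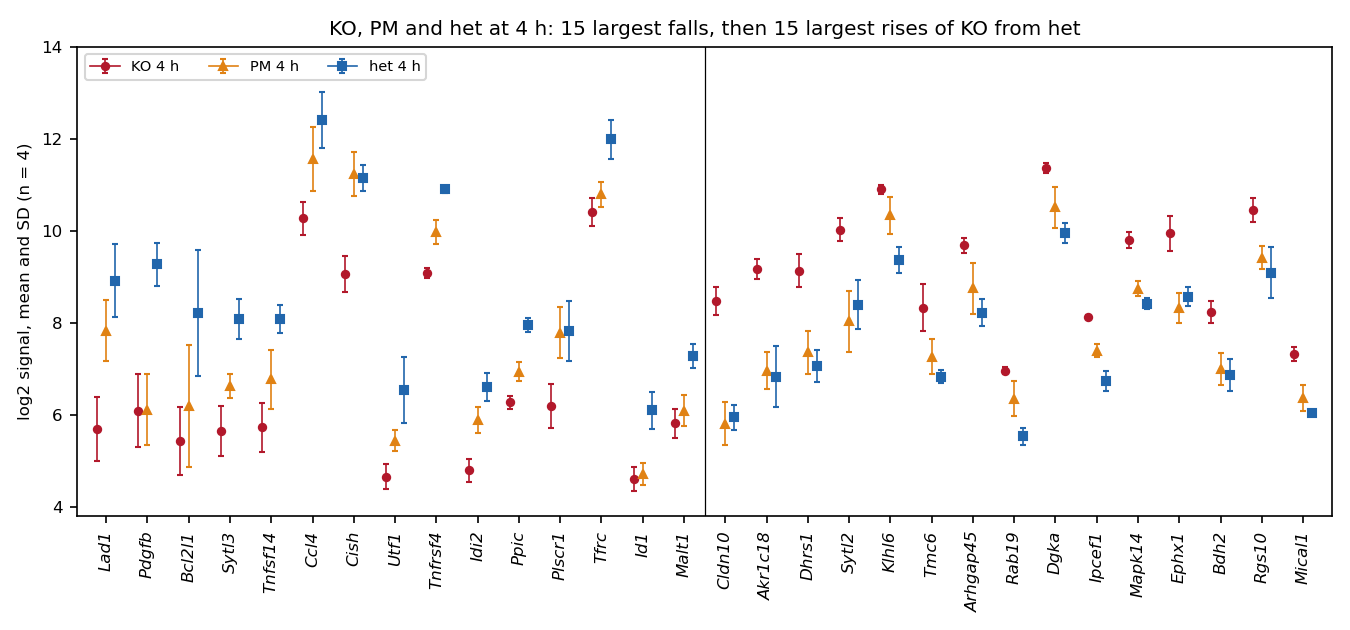
Mean and SD (n = 4) of the log2 signal at 4 h in KO (red circles), PM (orange triangles) and het (blue squares) for the 15 largest falls and, right of the line, the 15 largest rises of KO from het. PM stands near het for Cish, Plscr1, Cldn10 and Akr1c18, near KO for Pdgfb and Id1 (Id1 near background in both), and between them for Lad1, Idi2 and Tnfrsf4.

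Calls on the chromosome of Malt1 were counted separately. Of 166 tested on chromosome 18, 15 were called (9.04%), 9 of them lower, against 8.74% of all genes. Ppic, which encodes cyclophilin C, read 6.47, 6.29, 6.22 and 6.14 in KO and 7.84, 7.84, 8.15 and 7.99 in het cells at 4 h, 3.19-fold lower without overlap (adjusted p = 2.60e-07), and -0.95 on the log2 scale without background correction. It was already lower by a difference of -1.29 before stimulation (adjusted p = 0.000809) and of -1.24 after 1 h (adjusted p = 0.000896), and its response to stimulation did not differ beyond the threshold (-0.38, adjusted p = 0.700). In the RefSeq gene order 75 protein-coding genes lie between it and Malt1. The chromosome also carries Cd226, an activating receptor of T and NK cells (-1.32, adjusted p = 0.000139, and -0.44 without background correction), Map3k8, a kinase of the NF-kB and ERK pathways (-1.31, adjusted p = 0.00391), Mbp (-1.04, adjusted p = 5.59e-06) and Nars, an asparaginyl-tRNA synthetase with 3 genes between it and Malt1 (-0.54, adjusted p = 0.0223). The other lower genes were Slc12a2 (-0.90), Slc39a6 (-0.48) and Wdr55 (-0.82). Called higher were Bin1 (0.82), Egr1 (0.82), Mapre2 (0.66), Mppe1 (0.59), Tpgs2 (0.46) and Cep120 (0.46), of which Mppe1 has 12 genes between it and Malt1. Several of these calls were fragile. Among the lower genes Nars, Slc39a6 and Wdr55 lost theirs in 6, 7 and 7 of 20 settings. Among the higher ones Mapre2, Mppe1, Tpgs2 and Cep120 lost theirs in 8, 6, 10 and 7.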

How the data were processed

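Illumina bead array signals of 36 mouse T cell samples were used, 4 for each of 3 genotypes at 3 times. RNA was amplified with an Ambion MessageAmp kit, per the labels' protocols, and arrays were read with GenomeStudio 2011.1, per the submitters' processing notes. The deposited table holds an intensity per probe and array that is not normalized, and beside it a detection p-value, per the file headers. The authors' processed values, whose normalization is not given in the sources used here, served as an alternative.

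Signals were background-corrected and quantile-normalized with an offset of 16 and put on a log2 scale from the deposited intensity. Probes detected at p under 0.01 on at least 4 arrays were kept (10961 of 25697), and the brightest probe stood for each of 7585 genes. All 9 groups entered 1 limma fit (limma 3.58.1, R 4.3.3, 27 residual degrees of freedom), with Benjamini-Hochberg adjusted p under 0.05. The number of arrays limits the precision.

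The text names the 15 genes most raised and the 15 most lowered among calls without overlap, Malt1, members of gene lists, and called genes on chromosome 18. The members and lists were chosen with earlier results of these data known. Deviations from the group means of same-numbered KO and het arrays at 4 h correlated at 0.163, 0.587, 0.108 and 0.576, so the numbers were taken to pair them. For 2 of the 4 KO arrays the same-numbered het array was the best correlated one, so the pairing is an assumption. Unless another setting is named, adjusted p-values come from the fit without the block, which ignores it. The fit was tested on simulated data. Alternatives covered scaling, background, filter, probe choice, the samples fitted, the replicate block, array weights and leaving out replicates.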

Additional observations from a re-analysis of the deposited data

Results flagged for a closer look

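In 151 genes the KO minus het difference at 4 h differed from that at 0 h (limma, response test). Among the largest falls the change in the difference was -3.18 for Lad1, -3.07 for Pdgfb, -2.56 for Bcl2l1, -2.27 for Sytl3, -2.03 for Tnfsf14, -1.93 for Utf1, -1.86 for Idi2, -1.75 for Id1, -1.64 for Tfrc, -1.57 for Cish and -1.41 for Tnfrsf4 (log2). Among the largest rises it was 2.30 for Akr1c18, 2.10 for Dhrs1, 1.92 for Cldn10, 1.57 for Klhl6, 1.47 for Mical1, 1.44 for Dgka, 1.41 for Tmc6, 1.40 for Arhgap45, 1.35 for Ipcef1, 1.27 for Mapk14, 1.26 for Bdh2, 1.21 for Rab19, 1.19 for Rgs10 and 1.12 for Ephx1.

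A pair of single arrays stood far from the other 3 of their group. Rab19 read 5.26 on het replicate 3, below the other het arrays, and Rgs10 read 9.91 on het replicate 2, above them. Chance alone marks about 1 in 20 groups in this way.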

How the results depend on the processing

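The counts of called genes depended on the fit more than the directions did. The 20 settings were run for 104 genes called between KO and het, not for the uncalled genes the text names. None of the 104 reversed, 281 of 2080 results lost their call, and 30 genes never lost it. A reversal was unlikely from the start, since these genes were chosen by their call on the same arrays. Without background correction 24 of the 104 genes moved by over 1.5 times, all toward 0. With median scaling KO against het gave 73 genes, the response 11 and KO against PM 32, and the median of all genes was -0.05. With only the compared groups in the fit, KO against het gave 391 and KO against PM 56. With array weights KO against het gave 1182 and the response 386. With the replicate number as a block the counts were 1153, 351 and 441, and as a random block 1104, 349 and 412. Deviations from the group means of same-numbered arrays correlated at 0.108 to 0.587 between KO and het at 4 h. Between KO and PM at 4 h they correlated at -0.07 to 0.67, and between het at 4 h and het at 0 h at 0.267 to 0.623. The titles use the same numbers in every group, and these values do not set KO and het at 4 h apart as the paired comparison. Leaving out replicates gave 463 to 692 genes for KO against het, 75 to 183 for the response and 114 to 203 for KO against PM. The response count was lowest without replicate 4 (75), followed by het replicate 3 at 4 h (90), het replicate 4 at 4 h (99) and KO replicate 2 at 0 h (99). KO against PM fell to 114 without PM replicate 3 and 136 without KO replicate 2. The cause was not tested. Signals near background limit Utf1, Id1, Idi2 and Foxp3, and 4 arrays a group limit all tests.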
